A study of Mus musculus with 12 samples.

Results

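The serum- and glucocorticoid-regulated kinases Sgk1, Sgk2 and Sgk3, the related ubiquitin ligases Nedd4 and Nedd4l, and the N-myc downstream-regulated genes Ndrg1 and Ndrg2 were measured in mouse hypothalamic neurospheres treated with a glucocorticoid. The 7 genes were taken by name from the deposited table, where each has 1 locus of its own among 40597 loci. Neurospheres are free-floating clusters grown from dissociated neural stem and progenitor cells. The libraries came from female cultures with 100 nM dexamethasone, female cultures with ethanol vehicle, male cultures with 100 nM dexamethasone and male cultures with ethanol vehicle, 3 libraries in each of these 4 groups. Dexamethasone is a synthetic glucocorticoid, and exposure to it or to the vehicle lasted 4 hours. All 12 libraries shared the C57Bl/6 strain, a dissection at embryonic day 14.5, hypothalamic tissue and passage 3, and the labels name no allele or transgene. The labels call the libraries of a group biological replicates without saying what was separate between them, so a p-value speaks only of the spread among these cultures.

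Sgk kinases are relatives of Akt that are activated downstream of phosphoinositide 3-kinase, through the kinase Pdpk1 and the mTORC2 complex. Sgk1 was named for the induction of its transcript by serum and glucocorticoids, and in kidney epithelium it phosphorylates Nedd4l, which then binds 14-3-3 proteins and removes fewer sodium channels from the membrane. Sgk1 phosphorylates Ndrg1 and Ndrg2, and phosphorylated Ndrg1 is often read as a marker of its activity, a state of the protein that RNA does not report. Ndrg1 is also induced by low oxygen, and Ndrg2 is abundant in astrocytes of the adult brain.

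Expression was measured as FPKM, fragments scaled by transcript length and by library. Of the 7 genes, 6 averaged 1 FPKM or more across the libraries and entered the test, and Sgk2 did not. A gene was called at an adjusted p under 0.05 (limma on log2(FPKM + 1), Benjamini-Hochberg over the 14931 loci that passed the same filter). None of the 6 tested genes was called in the effect of dexamethasone averaged over both sexes, against 1.53% of all tested loci (229 loci, or 146 without female dexamethasone library 1). At an unadjusted p under 0.05 there was 1 of the 6, Sgk3, against 2031 of the 14931 loci. Sgk3 was called only in an alternative fit that took same-numbered libraries of a sex as pairs, which the labels do not state. The same libraries held a response elsewhere. The glucocorticoid target Fkbp5, a chaperone of the receptor, averaged 113 FPKM with dexamethasone and 20.3 FPKM with vehicle (n = 6 each), a log2 fold change of 2.42 (SE 0.14, limma adjusted p = 1.98e-05).

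The library labels were checked against marker genes. All 8 neural stem and progenitor markers averaged at least 1 FPKM, led by Fabp7 at 3503 FPKM, as did all 9 astrocytic, 8 of 10 oligodendrocyte-lineage and 4 of 8 neuronal markers. No microglial or endothelial and mural marker averaged 1 FPKM, with 7 measured in either list. In single libraries Col1a1 reached at most 1.35 FPKM and Kdr at most 1.18 FPKM, both in male dexamethasone library 2, and the microglial gene C1qa is listed at 0 throughout. Of 7 hypothalamic patterning genes only Six3 and Foxd1 averaged 1 FPKM or more, and Rax, Nkx2-1, Six6, Sim1 and Otp averaged 0.00333 to 0.0460 FPKM. Six3 and Foxd1 set 2 libraries apart. The sum of the 7 hypothalamic genes was 0.196 FPKM in female dexamethasone library 2 and 0.105 FPKM in female vehicle library 2. It was 8.95 to 53.5 FPKM in the other 10 libraries, most of it Six3 at 7.45 to 50.6 FPKM. In these 2 female libraries Six3 was at 0.0702 and 0.0640 FPKM, and Foxd1 is listed at 0 in both. Male dexamethasone library 2 had 14.1 FPKM and male vehicle library 2 had 3.04 FPKM of the X-inactivation RNA Xist, where the other 4 male libraries had at most 0.0466 FPKM. Within a sex, the libraries set apart by Six3 or by Xist were thus the 2 numbered 2. Loci with no gene name took 53.1% of the FPKM in male dexamethasone library 2 and 75.0% in male vehicle library 3, against 11.6% to 38.6% in the other 10. The summed FPKM of protein-coding loci did not set these apart. It was 434351 and 398136 in these 2 male libraries and 397412 to 453923 in the other 10. With any of these 5 libraries left out singly, none of the 6 tested genes was called in any contrast. FPKM hold no counts, and the depth of each library is unknown. In bulk RNA, fewer cells of a type and less RNA per cell cannot be told apart.

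Promoter windows of 250 bases before to 50 bases after a transcript start (RefSeq, GRCm38.p6) were available for 3 of the 7 genes: 6 windows of Sgk1, 2 of Nedd4 and 3 of Ndrg2. They were searched for the glucocorticoid response element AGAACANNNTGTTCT, which reads the same on both strands, and for its half-site AGAACA on either strand, which is part of every full match. The full motif occurred in 3 of 32851 windows (0.00913%), and 1 of these was a window of Sgk1. The other two were at starts of Acnat2, listed at 0 in these libraries, and of Gm35041, for which no locus was matched. The half-site occurred in 19.0% of all windows. It was in 3 of the 6 Sgk1 windows, 1 of the 2 Nedd4 windows and none of the 3 Ndrg2 windows. Among control genes that dexamethasone raised, Fkbp5 with 1 window, Klf9 with 1 and Per1 with 2 held neither motif, and Tsc22d3 held a half-site in 1 of 3. A match gives only that these letters are present.

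Sgk1 starts at several places, and 2 of its windows are shown because they differ in this motif. The first holds the full motif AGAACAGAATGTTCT, whose first base lies 189 bases before the start, and a separate half-site further upstream. It lies at chr10:21993640-21993939 on the plus strand (GRCm38), inside the locus counted as Sgk1. The second belongs to the last of the 6 starts and lies at chr10:21994416-21994715 on the plus strand. It holds neither motif. Capitals mark the full motif and the half-sites.
Sgk1 window with the full motif: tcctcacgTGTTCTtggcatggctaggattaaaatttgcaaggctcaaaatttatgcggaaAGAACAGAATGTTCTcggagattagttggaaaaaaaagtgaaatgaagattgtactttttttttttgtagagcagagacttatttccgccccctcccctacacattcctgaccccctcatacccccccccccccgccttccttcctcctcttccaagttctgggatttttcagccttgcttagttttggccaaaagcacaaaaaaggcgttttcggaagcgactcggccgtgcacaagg
Sgk1 window of the last start: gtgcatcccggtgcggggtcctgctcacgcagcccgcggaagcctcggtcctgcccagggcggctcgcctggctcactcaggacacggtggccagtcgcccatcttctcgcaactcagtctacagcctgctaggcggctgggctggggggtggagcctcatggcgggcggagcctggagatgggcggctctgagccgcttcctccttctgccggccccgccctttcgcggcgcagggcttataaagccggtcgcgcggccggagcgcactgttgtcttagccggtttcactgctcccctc

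Sgk1 (chromosome 10, 21882184 to 21999903, plus strand, GRCm38) was not called with dexamethasone. Female dexamethasone libraries 1, 2 and 3 had 20.8, 16.7 and 21.5 FPKM of Sgk1, and female vehicle libraries had 25.2, 14.8 and 26.5 FPKM. In males, Sgk1 was at 18.0, 23.7 and 11.9 FPKM with dexamethasone and at 16.6, 31.3 and 16.0 FPKM with vehicle. The dexamethasone libraries lay inside the range of the vehicle libraries except for the lowest, male library 3. Mean levels were 18.8 ± 4.19 FPKM with dexamethasone and 21.7 ± 6.85 FPKM with vehicle (SD, n = 6 each). The averaged log2 fold change was -0.18 (SE 0.22, 95% interval -0.68 to 0.33), with a limma adjusted p of 0.763. A rise of the Sgk1 RNA, averaged over both sexes, above 0.33 on the log2(FPKM + 1) scale lay outside that interval. Fkbp5 in the same 12 libraries was higher by 2.42. The interval for Sgk1 reached 0.49 in males alone and 0.58 in females alone. The Sgk1 values pool all starts of the locus, at 4 hours only. Without the 2 female libraries numbered 2, an alternative added after seeing the data, the value for Sgk1 was -0.25 (limma adjusted p = 0.763).

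Sgk3 (chromosome 1, 9798130 to 9902588, plus strand), a kinase that carries a lipid-binding domain and sits on endosomes, had the smallest p of the 6 genes, and it did not pass the adjustment. Female dexamethasone libraries 1, 2 and 3 had 13.6, 15.9 and 12.3 FPKM of Sgk3, and female vehicle libraries had 12.0, 10.8 and 9.70 FPKM. In females every dexamethasone library was above every vehicle library. In males Sgk3 was at 15.8, 11.9 and 10.1 FPKM with dexamethasone and at 12.9, 9.47 and 7.79 FPKM with vehicle, so the male groups overlapped. Means were 13.2 ± 2.30 FPKM with dexamethasone and 10.4 ± 1.84 FPKM with vehicle (SD, n = 6 each). The averaged log2 fold change was 0.32 (SE 0.14, 95% interval 0.01 to 0.62), with a limma unadjusted p of 0.0430 and an adjusted p of 0.347. The difference was 0.33 in females and 0.30 in males (limma adjusted p = 0.713 and 0.837). Without the 2 female libraries numbered 2, the averaged value was 0.27 (limma adjusted p = 0.652). With same-numbered libraries of a sex fitted as pairs, Sgk3 was called higher (limma adjusted p = 0.0335), as were or fell 5.38% of all tested loci. The labels do not say that a number is shared, and the pairing was not established. Libraries numbered 2 of a sex did share the marker traits given above.

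Sgk2 (chromosome 2, 162987330 to 163014127, plus strand), the family member best known from liver, kidney and pancreas, was at or near 0. It is listed at 0 in 8 of the 12 libraries, among them all 3 female dexamethasone libraries and female vehicle library 1. The other 4 values were 0.0287 FPKM in male dexamethasone library 1, 0.0223 and 0.0195 FPKM in female vehicle libraries 2 and 3, and 0.0185 FPKM in male vehicle library 3. After allowing for the relative depth of the libraries, these 4 values were 0.965 to 1.00 times that of male vehicle library 3. An equal number of fragments in each, such as 1, would give values close to equal, and FPKM do not give the number. An exact two-sided permutation test of the mean log2(FPKM + 1), dexamethasone against vehicle, gave p = 0.545, and values this low give no fold change.

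**Figure D1:**
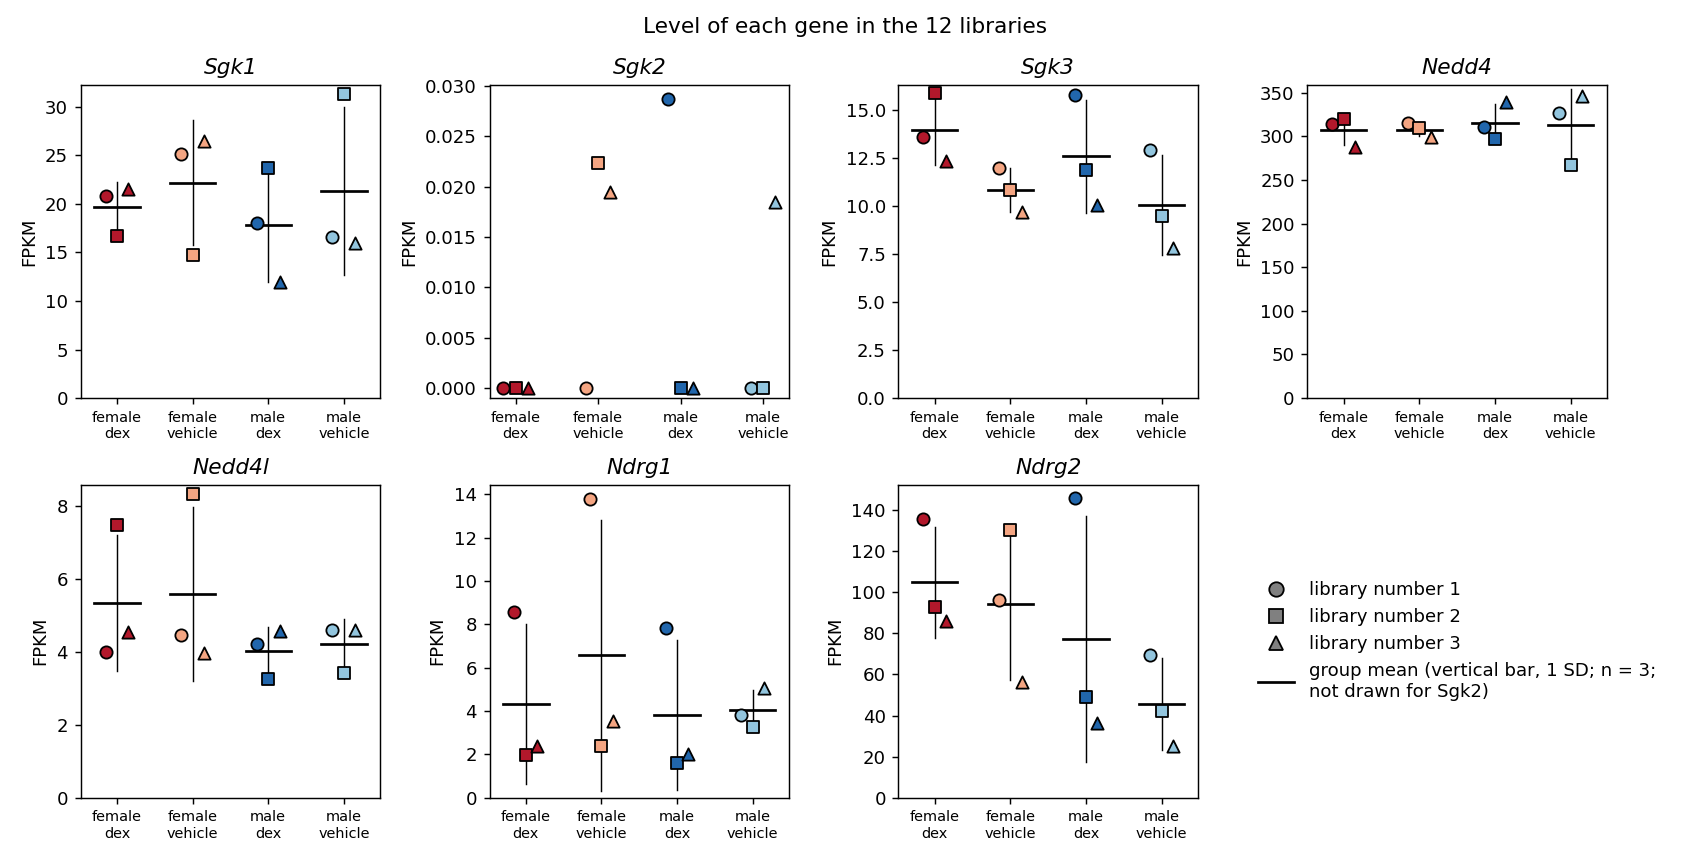
Level of each of the 7 genes in FPKM (vertical axes, each on its own scale) in the 12 libraries, in 4 groups of 3. Symbols give the library number, horizontal lines the group mean and vertical bars 1 SD, which are not drawn for Sgk2. Female dexamethasone libraries stand above female vehicle libraries for Sgk3 alone, Nedd4 is level at 268 to 347 FPKM, and Nedd4l is highest in the 2 female libraries numbered 2.

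The ligases differed in level far more than with treatment. Nedd4 (chromosome 9, 72662346 to 72749852, plus strand), the founding member of its HECT ligase family, had 315, 320 and 287 FPKM in female dexamethasone libraries 1, 2 and 3 and 315, 309 and 299 FPKM in female vehicle libraries. Male dexamethasone libraries had 310, 297 and 340 FPKM of Nedd4, and male vehicle libraries had 327, 268 and 347 FPKM. The groups overlapped throughout. Means were 312 ± 18.3 FPKM with dexamethasone and 311 ± 26.7 FPKM with vehicle (SD, n = 6 each). The averaged log2 fold change of Nedd4 was 0.01, with a 95% interval of -0.16 to 0.17 (limma adjusted p = 0.985), and its sign changed to -0.14 with quantile normalization of the libraries (adjusted p = 0.480). The coefficient of variation of Nedd4 over the 12 libraries was 7.01%, and 5.33% of tested loci had a lower one.

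Nedd4l (chromosome 18, plus strand), the ligase best known for acting on the epithelial sodium channel, was much lower than Nedd4. Female dexamethasone libraries 1, 2 and 3 had 4.01, 7.47 and 4.54 FPKM of Nedd4l, and female vehicle libraries had 4.45, 8.32 and 3.98 FPKM. Male dexamethasone libraries had 4.20, 3.27 and 4.56 FPKM, and male vehicle libraries had 4.60, 3.43 and 4.60 FPKM. The 2 highest values were those of the female libraries numbered 2. These had the least Six3, and Foxd1 is listed at 0 in both. The part of that difference in the level of Nedd4l was not tested. The averaged log2 fold change was -0.05 (95% interval -0.46 to 0.37, limma adjusted p = 0.937). It lay between -0.16 and 0.09 when single libraries were left out. Nedd4 exceeded Nedd4l by 37.2 to 90.9 times within a library, with a median of 74.2 over the 6 dexamethasone libraries and 73.1 over the 6 vehicle libraries. Loci annotated on the opposite strand overlap Nedd4l and Sgk3. Of those in Sgk3, Gm6195 averaged 0.322 FPKM and Gm22607 is listed at 0. Loci on the same strand, such as Gm7265, overlap Nedd4. No value was matched to them, so their part in the level of Nedd4 is unknown. The sources used here do not give the strand setting of the counting.

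Ndrg1 (chromosome 15, locus 66929320 to 67013039, minus strand) varied most. Female dexamethasone libraries 1, 2 and 3 had 8.59, 1.98 and 2.39 FPKM of Ndrg1, and female vehicle libraries had 13.8, 2.37 and 3.57 FPKM. The male dexamethasone libraries had 7.82, 1.61 and 2.02 FPKM, and the male vehicle libraries had 3.81, 3.29 and 5.08 FPKM. Both female libraries numbered 1 and male dexamethasone library 1 were high, and the groups overlapped. The coefficient of variation was 77.8%, and 90.2% of tested loci had a lower one. The averaged log2 fold change was -0.35, with a 95% interval of -1.38 to 0.69 (limma adjusted p = 0.773), the widest interval of the 6 genes. Summed over 11 hypoxia genes, which include the glycolytic enzyme genes Ldha and Pgk1, the level was 1079, 711 and 573 FPKM in female dexamethasone libraries and 1080, 601 and 529 FPKM in female vehicle libraries. In male dexamethasone libraries this sum was 991, 441 and 768 FPKM, and in male vehicle libraries it was 845, 471 and 697 FPKM. The 3 libraries with the highest Ndrg1 also had the 3 highest hypoxia sums. Below these the order differed: male vehicle library 1 came next in the sum and male vehicle library 3 next in Ndrg1. Ldha, at a mean of 397 FPKM, was the largest part of the sum. The part of the hypoxia genes in the spread of Ndrg1 was not tested. An antisense locus at 66929607 to 66931107, Gm17035, overlaps Ndrg1 and averaged 1.02 FPKM. The counted locus runs upstream of the annotated start of Ndrg1, which lies at 66969640 on the minus strand. It ends at 67013039, the end of the opposite-strand locus Gm2895, which averaged 0.00690 FPKM.

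Ndrg2 (chromosome 14, 51905158 to 51913988, minus strand) was abundant and uneven. Female dexamethasone libraries 1, 2 and 3 had 136, 92.9 and 85.9 FPKM of Ndrg2, and female vehicle libraries had 96.2, 130 and 56.1 FPKM. Male dexamethasone libraries had 146, 49.0 and 36.4 FPKM, and male vehicle libraries had 69.4, 42.2 and 25.0 FPKM. The groups overlapped in both sexes. Means were 90.9 ± 44.2 FPKM with dexamethasone and 69.8 ± 38.1 FPKM with vehicle (SD, n = 6 each), an averaged log2 fold change of 0.40 with a 95% interval of -0.44 to 1.25 (limma adjusted p = 0.656). Summed over 9 astrocytic markers, all of them above a mean of 1 FPKM and led by Apoe at 615 FPKM, the level was 2215, 1640 and 1378 FPKM in female dexamethasone libraries and 1984, 2454 and 1118 FPKM in female vehicle libraries. In male dexamethasone libraries this sum was 2268, 1037 and 770 FPKM, and in male vehicle libraries it was 1527, 1008 and 734 FPKM. The 3 libraries highest in Ndrg2 were the 3 highest in the astrocytic sum. Whether the astrocytic share of a culture enters the level of Ndrg2 was not tested.

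**Figure D2:**
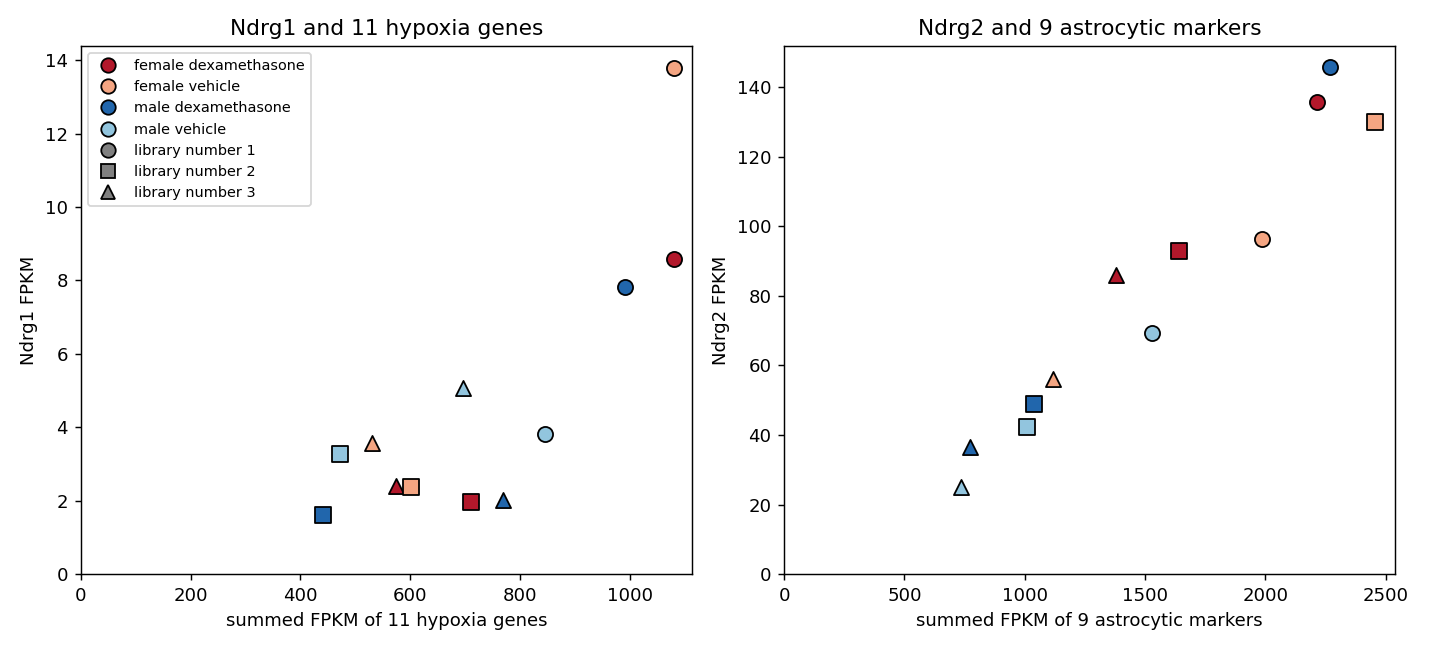
Left, Ndrg1 FPKM (vertical) against the summed FPKM of 11 hypoxia genes (horizontal). Right, Ndrg2 FPKM against the summed FPKM of 9 astrocytic markers. Each point is 1 of 12 libraries, with colours for the groups and symbols for the library number. The libraries at 991 to 1080 FPKM of hypoxia genes hold the 3 highest Ndrg1 values, and those at 2215 to 2454 FPKM of astrocytic markers hold the 3 highest Ndrg2 values. Below the 3 highest Ndrg1 values, the order in Ndrg1 and in the hypoxia sum differs.

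Ordered by mean FPKM, a scale that allows for transcript length, the levels were 311 for Nedd4, 80.4 for Ndrg2, 20.3 for Sgk1, 11.8 for Sgk3, 4.79 for Nedd4l, 4.69 for Ndrg1 and 0.00741 for Sgk2 (n = 12). Over all libraries the range of each gene overlapped that of its neighbour in this order, except for Nedd4 with Ndrg2 and Ndrg1 with Sgk2. Within a library the order was firmer, since each gene was above the next in 12 of 12 libraries, other than Nedd4l, which was above Ndrg1 in 8 of 12. Sgk1 was above Sgk3 in every library. The ratio of Sgk1 to Sgk3 had a median of 1.36 with dexamethasone and 2.08 with vehicle, with ranges of 1.05 to 1.99 and 1.29 to 3.31 that overlap.

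The sexes were compared next. In females alone and in males alone, none of the 6 tested genes was called with dexamethasone, against 0.482% and 0.315% of all tested loci, and none had an unadjusted p under 0.05, where 1198 and 953 loci did. The log2 fold change of Sgk1 was -0.13 in females and -0.22 in males, and that of Ndrg2 was 0.21 in females and 0.60 in males (limma adjusted p = 0.954, 0.935, 0.956 and 0.885). The test of the difference itself, the effect in females minus the effect in males, called none of the 6 genes against 0.0335% of loci, with none at an unadjusted p under 0.05. The differences lay between -0.39 for Ndrg2 and 0.10 for Sgk1, and the interval for Ndrg2 reached -2.08 to 1.30.

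Between female and male cultures, averaged over the treatments, none of the 6 genes was called, against 0.107% of loci. Ndrg2 had an unadjusted p under 0.05, one of 1147 such loci, with means of 99.5 FPKM in females and 61.3 FPKM in males. Its log2 difference was 0.87 (95% interval 0.03 to 1.71, limma unadjusted p = 0.0445, adjusted p = 0.638), and the female and male libraries overlapped. It ran from 0.67 to 1.16 with single libraries left out, and was 0.77 without the 2 female libraries numbered 2. The astrocytic sum was 1118 to 2454 FPKM in the 6 female libraries and 734 to 2268 FPKM in the 6 male libraries. The median log2 difference, female minus male, was 0.51 for tested astrocytic and 0.70 for tested oligodendrocyte-lineage markers. It was 0.16 for stem and progenitor, 0.05 for neuronal and -0.59 for hypothalamic patterning markers, against 0.04 over all tested loci. The hypothalamic value rests on 2 tested genes, Six3 and Foxd1, both at or near 0 in the 2 female libraries numbered 2. In the other female libraries Six3 was at 29.7 to 50.6 FPKM, against 7.45 to 39.6 FPKM in males. Foxd1 was at 0.397 to 2.85 FPKM there, against 0.284 to 3.16 FPKM in males. The part of any of these lists in the level of Ndrg2 was not tested. Nedd4l averaged 5.46 FPKM in females and 4.11 FPKM in males, a log2 difference of 0.30 (limma adjusted p = 0.703). Without the 2 female libraries numbered 2, that difference was 0.04 (limma adjusted p = 0.974).

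The pathway around the Sgk kinases was described through lists of genes, by counts and medians. Over all 14931 tested loci the median averaged log2 fold change was -0.01, and 1.15% of loci were called higher and 0.388% lower. Of 10 genes that act upstream of Sgk, 1 was called higher and none lower, with a median of 0.01. That gene was Pik3r1, which encodes the p85-alpha regulatory subunit of phosphoinositide 3-kinase. Female dexamethasone libraries 1, 2 and 3 had 82.9, 99.4 and 109 FPKM of Pik3r1, and female vehicle libraries had 36.2, 60.8 and 57.7 FPKM. Male dexamethasone libraries had 91.4, 101 and 87.6 FPKM, and male vehicle libraries had 43.3, 59.3 and 48.8 FPKM. Every dexamethasone library was above every vehicle library. The log2 fold change of Pik3r1 was 0.91 (SE 0.14, limma adjusted p = 0.0106). It stayed called when any single library was left out, and was not called without male dexamethasone library 2 and male vehicle library 3 together (0.87, adjusted p = 0.0852). The kinase Pdpk1 and the mTORC2 subunits Rictor, Mapkap1, Mlst8 and Prr5 were not called. Of these, Prr5 had a log2 fold change of 0.71 (limma adjusted p = 0.0912).

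The 3 Akt genes, the nearest relatives of Sgk, had a median log2 fold change of -0.10 with none called, and Akt1 was the highest at 108 FPKM. Among 14 substrates of Sgk and channels that Nedd4l acts on, 7 were tested and none was called, with a median of -0.13. The kinase Wnk1 was the highest of these at 76.6 FPKM, and the sodium channel subunit Scnn1g and the sodium-chloride cotransporter Slc12a3 are listed at 0 in all 12 libraries.

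Of 7 other ligases of the Nedd4 family, 6 were tested and 1 was called, lower, with a median of -0.10. This was Smurf1, a ligase that acts on Smad proteins. Smurf1 had 6.84, 7.66 and 8.28 FPKM in female dexamethasone libraries against 9.11, 11.2 and 9.93 FPKM in female vehicle libraries, and 6.30, 6.92 and 7.84 FPKM in male dexamethasone libraries against 9.17, 8.83 and 10.2 FPKM in male vehicle libraries. The groups did not overlap, and the log2 fold change was -0.37 (SE 0.08, limma adjusted p = 0.0475). The call lay at the threshold: leaving out any single library other than male dexamethasone library 3 ended it (limma adjusted p = 0.0527 to 0.128), with the value between -0.41 and -0.34. The highest ligase of this list was Itch, at 30.3 FPKM.

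Of 11 adaptors and inhibitors of Nedd4-family ligases, a list that holds the 14-3-3 genes, 1 was called, lower, with a median of -0.02. This was Ywhah, which encodes 14-3-3 eta. Ywhah had 86.7, 102 and 105 FPKM in female dexamethasone libraries against 136, 142 and 146 FPKM in female vehicle libraries. In males it had 85.6, 123 and 105 FPKM with dexamethasone against 143, 163 and 136 FPKM with vehicle. All 6 dexamethasone libraries were below all 6 vehicle libraries, and the log2 fold change was -0.52 (SE 0.09, limma adjusted p = 0.0245). Left out singly, 7 libraries ended the call. The limma adjusted p was then 0.0688 and 0.0555 for numbers 1 and 2 of female dexamethasone, 0.0559 and 0.0720 for numbers 2 and 3 of female vehicle, 0.0508 for number 3 of male dexamethasone, and 0.0547 and 0.0694 for numbers 1 and 2 of male vehicle. Without the 2 female libraries numbered 2 it was 0.115. The most abundant gene of this list was Ywhae, at 472 FPKM, which was not called (-0.21). The 2 other Ndrg genes on the list, Ndrg3 and Ndrg4, were not called and had a median of -0.02, and Ndrg3 was the higher at 52.2 FPKM.

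Genes that share an inducer with Sgk1 or Ndrg1 were set beside them. Of 7 glucocorticoid controls, 5 were called higher and the median was 2.00. Besides Fkbp5 these were Tsc22d3 (GILZ) at 2.43, Klf9 at 2.00, Per1 at 1.91 and Zbtb16 at 3.05 (limma adjusted p = 4.78e-04, 4.44e-07, 2.87e-04 and 2.91e-06). The other two encode the receptors and were not called: Nr3c1, the glucocorticoid receptor, averaged 16.9 FPKM with dexamethasone and 19.4 FPKM with vehicle, and Nr3c2, the mineralocorticoid receptor, averaged 1.08 FPKM with dexamethasone and 1.56 FPKM with vehicle. Those 5 controls were also the only genes of the pathway lists called in females alone or in males alone.

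Of 10 tested hypoxia genes 1 was called, higher, with a median of 0.06. This was Adm, which encodes the peptide adrenomedullin. Adm had 41.9, 26.6 and 37.0 FPKM in female dexamethasone libraries against 20.7, 10.1 and 17.4 FPKM in female vehicle libraries, and 31.2, 27.2 and 28.0 FPKM in male dexamethasone libraries against 14.3, 14.5 and 15.5 FPKM in male vehicle libraries. Its log2 fold change was 1.02 (SE 0.16, limma adjusted p = 0.0145), and without male dexamethasone library 2 and male vehicle library 3 together the adjusted p was 0.0850. Of 10 tested immediate early genes, which serum also induces, 1 was called, lower, with a median of -0.24. This was Jun, counted in a locus joined with Gm12703, which averaged 31.7 FPKM with dexamethasone and 50.3 FPKM with vehicle (log2 fold change -0.65, SE 0.13, limma adjusted p = 0.0357). With libraries left out singly, the call of Jun was lost for 8 of the 12 (adjusted p = 0.0621 to 0.0995): numbers 2 and 3 of female dexamethasone, 1 and 3 of female vehicle, 1 and 2 of male dexamethasone, and 2 and 3 of male vehicle.

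**Figure D3:**
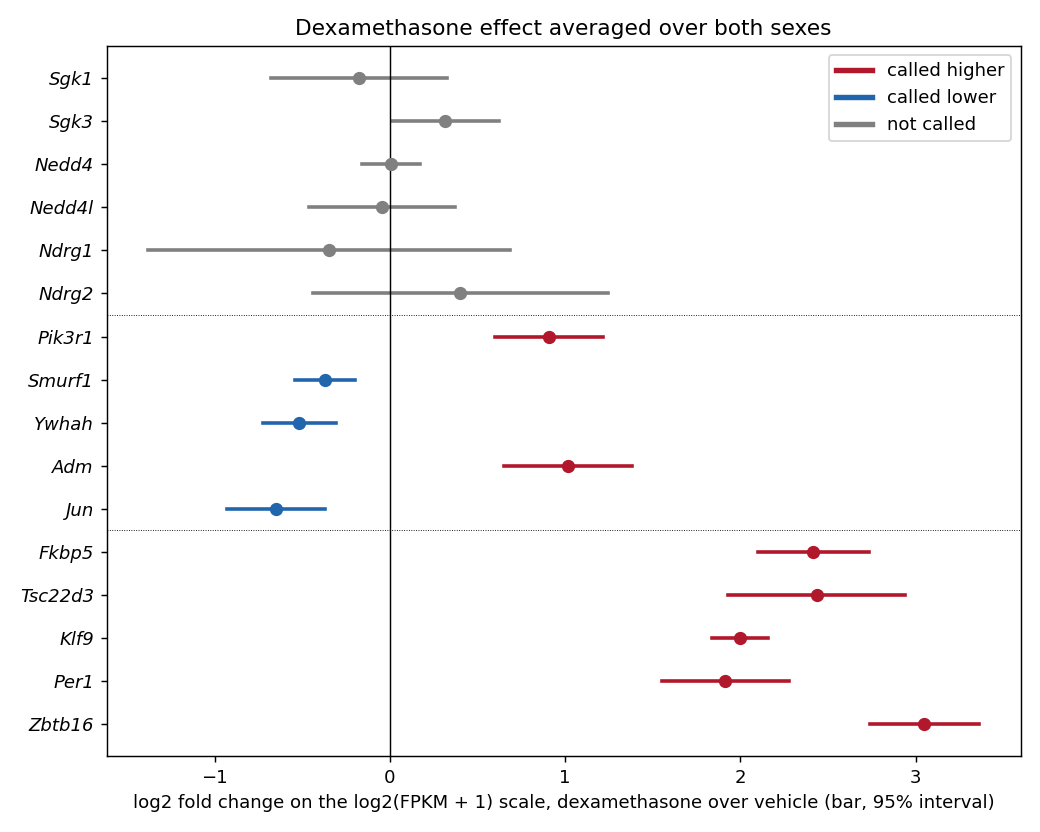
Log2 fold change on the log2(FPKM + 1) scale, dexamethasone over vehicle and averaged over both sexes, with its 95% interval as a bar, for the 6 tested genes (top), the called genes of the pathway, hypoxia and immediate early lists (middle) and the called glucocorticoid controls (bottom). The 6 genes lie between -0.35 and 0.40 and are not called, while the controls lie between 1.91 and 3.05.

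**Figure D4:**
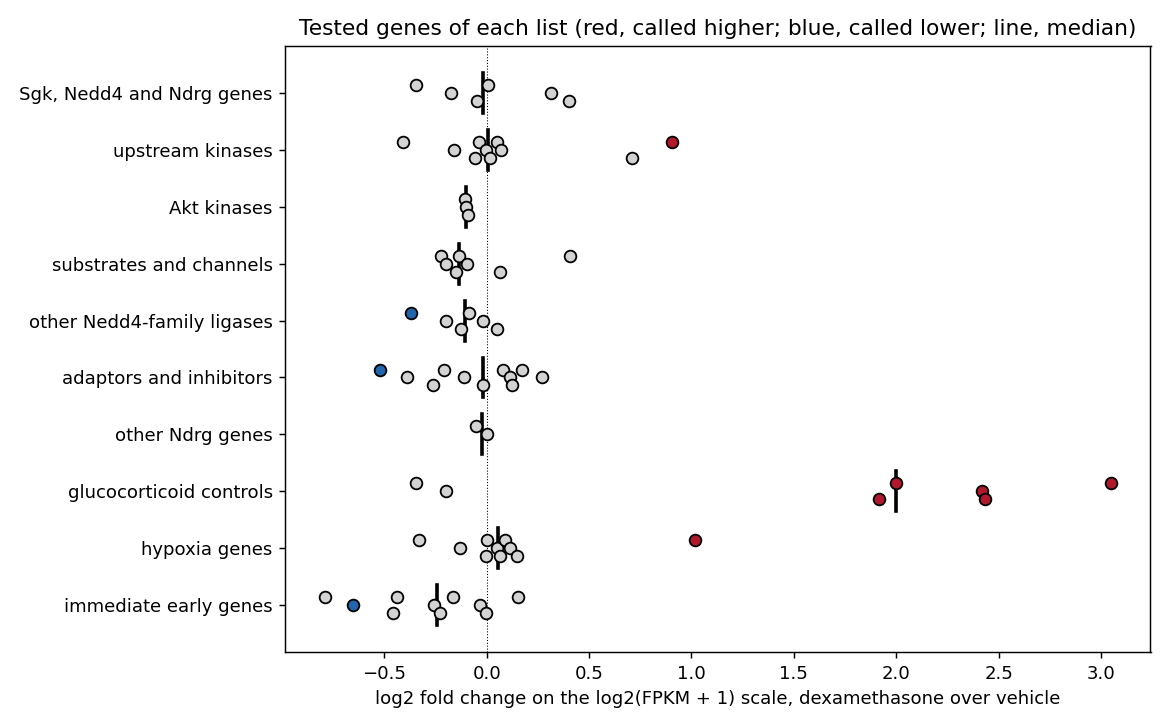
Log2 fold change on the log2(FPKM + 1) scale, dexamethasone over vehicle and averaged over both sexes, for each tested Sgk, Nedd4 and Ndrg gene and each tested gene of the pathway, control, hypoxia and immediate early lists (1 point per gene), with the list's median as a vertical line. Marker lists are not drawn. The medians drawn lie between -0.24 and 0.06 except for the glucocorticoid controls at 2.00.

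For each of the 6 genes above 1 FPKM, the 3 named loci most like it across the 12 libraries were taken by Pearson's r of log2(FPKM + 1), among 9747 loci that averaged 5 FPKM or more. The 12 points share groups, depth and culture, so these r are descriptions. Sgk1 was most like RP23-199B2.4 (0.908), Mtmr11 (0.899) and Metrnl (0.889), and Sgk3 was most like Myeov2 (0.958), Immp1l (0.956) and Med21 (0.952). Nedd4, which varied little, had lower values, with Cd2ap (0.863), the small RNA locus listed as Mir1949 (0.826) and Syce2 (0.815). Nedd4l was most like Asic1 (0.930), Glce (0.929) and Col9a3 (0.929). Ndrg1 was most like Ero1l (0.904), Mfsd7b (0.881) and Fut8 (0.876), and Ero1l, an oxidase of disulfide formation, is itself known to be induced by low oxygen. Ndrg2 had the highest values, with Mien1 (0.980), Ttyh1 (0.976) and the cell cycle inhibitor Cdkn1c (0.970).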

How the data were processed

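Total RNA of 12 neurosphere libraries was sequenced with a stranded kit. The authors deposited FPKM values for 40597 loci, of which 37937 carry a gene name and 930 join more than 1 gene. For 24 loci whose names read as dates, the symbol was recovered through the Ensembl identifier. TopHat2 2.0.9, Cufflinks 2.2.1 and Cuffdiff 2.2.1 were used on GRCm38, per the submitters' processing notes. Neither strand setting nor scaling is given in the sources used here, which leaves overlapping and antisense genes uncertain. By steps between low values (log ratio tolerance 0.005), the value of 1 fragment differed 1 to 1.61 times between libraries, and the libraries had 13755 to 14826 loci at 1 FPKM or more.

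Tests were made on log2(FPKM + 1) by limma 3.58.1 (R 4.3.3): 1 mean per group over 12 libraries, contrasts, empirical Bayes with a trend, two-sided, Benjamini-Hochberg adjustment over the 14931 loci averaging 1 FPKM or more, and calls at an adjusted p under 0.05. Fold changes are on this scale and understate the change of low genes. The code was tested on simulated data. Every printed adjusted p is from limma. Sgk2, below the filter, had an exact permutation test.

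The members and lists were chosen with earlier results of these data known. All 7 members are named, and of each list every gene called in the averaged effect, or otherwise the gene with the highest mean. Other genes named beside a count were chosen after their values were seen. Likeness took the 3 loci with the highest r among those with a mean of at least 5 FPKM. The alternatives were pseudocounts of 0.1 and 0.5, no filter or a mean of at least 5 FPKM, median-of-ratios scaling and quantile normalization. Further ones were a robust fit, a replicate block, fits within a sex, and libraries left out. The replicate block paired same-numbered libraries within a sex, and used the number alone where female and male cultures were compared.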

Additional observations from a re-analysis of the deposited data

How the results depend on the processing

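No member was called under any setting tried, in any of the 5 contrasts, except Sgk3 with same-numbered libraries of a sex as a block. In that fit the averaged effect of Sgk3 was 0.32 with an adjusted p of 0.0335, 1 member was called, and 804 loci were called in all (5.38%) against 229 (1.53%) without the block. Of the 97 other tested genes on the lists, 12 were called with and without the block and 9 with it alone: Prr5, Ndfip1, Egr1, Ier2, Ier3, Nes, Sox2, Sox9 and Aldoc (adjusted p = 0.0101 to 0.0430). Of the 18 genes named for their likeness it added Myeov2 and Immp1l (0.0397 and 0.0124). The labels do not say that a number is shared, and same-numbered libraries had correlated deviations of 0.0819 to 0.167, over 0.1 in 4 of 6 pairs, against -0.147 to 0.0338 between other numbers, so the pairing was not established. As a hint from the data only, all 6 dexamethasone libraries were closest to the vehicle library of their own number, and in the same-numbered libraries Sgk3 was higher with dexamethasone in 6 of 6 and Ndrg2 in 5 of 6. Marker traits also went with the number. Both female libraries numbered 2 were near 0 for Six3, at 0.0702 and 0.0640 FPKM. Both male libraries numbered 2 held Xist, at 14.1 and 3.04 FPKM. Whether same-numbered libraries share a culture was not tested. The exact test of Sgk2 gave p = 0.625 with pairs flipped, and 0.182 to 0.848 over all alternatives.

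The values that changed sign were all uncalled, and the cause was not tested. With quantile normalization the averaged Nedd4 value was -0.14 and that of Nedd4l 0.0014, Nedd4 in males was -0.12 and Nedd4l in females 0.0230. Without male dexamethasone library 2 and male vehicle library 3, Nedd4l was 0.04 averaged and 0.11 in males, Ndrg1 in males was 0.18, and the difference between the sexes was -0.15 for Nedd4l. Without the 2 female libraries numbered 2, chosen after seeing the data, Nedd4 was -0.0071 averaged, Nedd4l in females was 0.02, and the difference between the sexes was -0.05 for Sgk1 and -0.06 for Sgk3.

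With 1 library, or either of these sets of 2, left out, the averaged effect ran from -0.0491 to 0.0654 for Nedd4 and from -0.16 to 0.0941 for Nedd4l. In males it ran from -0.606 to 0.0762 for Sgk1, -0.0938 to 0.135 for Nedd4, -0.17 to 0.111 for Nedd4l and -0.834 to 0.185 for Ndrg1. In females it ran from -0.385 to 0.0174 for Sgk1, -0.0337 to 0.0427 for Nedd4, -0.264 to 0.245 for Nedd4l, -0.942 to 0.227 for Ndrg1 and -0.122 to 0.548 for Ndrg2. The difference of the effects ran from -0.205 to 0.477 for Sgk1, -0.145 to 0.197 for Sgk3, -0.14 to 0.0893 for Nedd4, -0.207 to 0.301 for Nedd4l, -0.658 to 0.511 for Ndrg1 and -0.792 to 0.194 for Ndrg2. Between female and male cultures the range was -0.0832 to 0.00978 for Nedd4 and -0.0957 to 0.594 for Ndrg1.

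The count of called loci fell to 114 without male dexamethasone library 2 and male vehicle library 3, to 135 without the 2 female libraries numbered 2, and to 146 without female dexamethasone library 1. In males it was 19 to 148 against 47, and in females 27 to 187 against 72, with the highest count under the block. For the difference of the effects it was 4 to 14 against 5, and between female and male cultures 14 to 28 against 16. Of the called pathway genes, Smurf1 was also lost with a pseudocount of 0.1, no filter, a mean of at least 5 FPKM or a robust fit (adjusted p = 0.0506 to 0.0928), and Jun with no filter (0.0544). Sgk2 was at 0 or near the floor in every library, and the number of fragments behind its values is not known.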

Other observations

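Of the uncalled genes on the pathway lists, 5 with small unadjusted p-values are given here, chosen after these were seen. Prr5, which encodes an mTORC2 subunit, averaged 2.96 FPKM with dexamethasone and 1.39 FPKM with vehicle (log2 fold change 0.71, limma adjusted p = 0.0912, or 0.0432 without female dexamethasone library 2). Foxo3, a transcription factor that Sgk kinases phosphorylate, averaged 13.6 FPKM with dexamethasone and 10.0 FPKM with vehicle (0.41, limma adjusted p = 0.0725, or 0.0441 without female vehicle library 2). Ndfip1, an adaptor that activates Nedd4-family ligases, averaged 201 FPKM with dexamethasone and 166 FPKM with vehicle. All 6 dexamethasone libraries of Ndfip1 were above all 6 vehicle libraries, and the adjusted p was 0.205 (limma, log2 fold change 0.27). Pik3cb, a catalytic subunit of phosphoinositide 3-kinase, averaged 1.96 FPKM with dexamethasone and 2.95 FPKM with vehicle (-0.41, limma adjusted p = 0.167). Ywhag, a further 14-3-3 gene, averaged 35.6 FPKM with dexamethasone and 46.2 FPKM with vehicle (-0.39, limma adjusted p = 0.231).

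The cell marker lists had 2 called genes in the averaged effect. Of 8 tested oligodendrocyte-lineage markers 1 was called, higher, and the median log2 fold change of the list was -0.04. This was Cspg4, an oligodendrocyte precursor proteoglycan. Of 8 tested neural stem and progenitor markers 1 was called, lower, with a median of -0.35. This was Msi1, which encodes an RNA-binding protein. None of 9 astrocytic, 4 neuronal and 2 hypothalamic patterning markers tested was called, with medians of -0.05, 0.04 and -0.21. Cspg4 had 15.7 to 25.2 FPKM in the dexamethasone libraries and 10.4 to 14.4 FPKM in the vehicle libraries (log2 fold change 0.76, limma adjusted p = 0.0114). Msi1 had 14.1 to 20.9 FPKM in the dexamethasone libraries and 22.7 to 32.6 FPKM in the vehicle libraries (-0.64, limma adjusted p = 0.0151). Msi1 was not called without male dexamethasone library 2 and male vehicle library 3 together (adjusted p = 0.0997), nor without the 2 female libraries numbered 2 (0.0906).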
